A study of Homo sapiens with 14 samples.

Results

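Neuroblastoma is a childhood tumour of the sympathetic nervous system, and copies of the MYCN gene on chromosome 2p24 are multiplied in a high-risk subset of cases. Gene expression was compared between 5 established human neuroblastoma cell lines with known MYCN amplification (SK-N-BE(2)C, IMR32, LS, NGP and SK-N-DZ) and 5 without it (CLB-GA, Lan-6, NBL-S, SK-N-AS and SK-N-FI), which together are 10 of the 14 lines of the series. The labels give the name of each line and no amplification status, so the split rests on textbook knowledge of these lines. The mesenchymal lines GI-ME-N and SK-N-SH and the subclones IMR5-75 (from IMR32) and SH-SY5Y (from SK-N-SH) were kept out of the test and are given beside it. The labels name no treatment, each line gave 1 library of total RNA, and SK-N-BE(2)C is itself a clone. Each p-value therefore measures the spread between lines of a group, which includes any technical difference between single libraries. In RNA of whole cultures, fewer cells with a transcript and less of it per cell cannot be told apart.

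MYCN and its relative MYC encode transcription factors that pair with MAX and bind the E-box CACGTG near the start of many genes. Their best known targets serve ribosome production, nucleotide and polyamine synthesis and amino acid metabolism. MAX also pairs with the MXD proteins, MNT and MGA, which act against MYC proteins at the same sites. In neuroblastoma cells, high MYCN and high MYC are known as alternatives, and MYCN-amplified tumours are known for low display of MHC class I.

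Levels are CPM, the counts of a gene relative to the scaled total of its library, and differences are log2 ratios of amplified over not amplified lines from edgeR's quasi-likelihood fit with their standard errors (SE). Library totals ranged from 35856642 to 58644013 counts, and a count of 0 allows up to 0.0515 CPM in LS, sequenced deepest, and 0.102 CPM in Lan-6, sequenced least. The levels of Lan-6 followed the GC content of genes (Spearman's rho 0.60 over 11729 genes, a description across genes), whereas rho lay between -0.34 and -0.04 in the other 9 lines. Values without Lan-6 are given beside results that it changed most. The lines were not uniform in cell state. LS and SK-N-AS, 1 line of each group, stood apart with mesenchymal marker scores of 2.43 and 2.80 and adrenergic scores of -2.50 and -2.08, where a score averages the log2 CPM of a list's genes after each gene's mean of the 10 compared lines is subtracted. The mesenchymal scores of the other 8 lines lay between -1.27 and 0.36, while GI-ME-N reached 5.76 and SK-N-SH 6.0. VIM, the intermediate filament vimentin, was 1471 CPM in LS and reached 1043 in SK-N-AS, against 34.4 to 348 CPM in the other 8 lines. HAND2, a defining factor of the noradrenergic lineage, was present in all 10 lines, from 506 to 1092 CPM. It is 1 member of the adrenergic list, falls outside the rule for named genes, and does not offset the low adrenergic scores of LS and SK-N-AS. Among leukocyte markers, PTPRC (CD45) read 466 CPM in SK-N-AS and 0.614 to 2.93 CPM in the other lines, while CD14 stayed at or under 2.39 CPM in every line.

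MYCN was measured first as the check of the groups. Its level was 2257 (SK-N-BE(2)C), 1445 (IMR32), 949.5 (LS), 1194 (NGP) and 1211 CPM (SK-N-DZ). Among lines without amplification it was 27.3 (CLB-GA), 7.34 (Lan-6), 213 (NBL-S), 0.492 (SK-N-AS) and 49.9 CPM (SK-N-FI). The groups did not overlap, and NBL-S came nearest to the amplified lines. The log2 difference of 4.56 (SE 1.19) had an adjusted p of 0.176 over all genes in edgeR, while the exact permutation test of mean log2 CPM over the 10 lines gave p = 0.00794, 2-sided, the smallest value that 5 lines against 5 allow. Without NBL-S the log2 difference was 6.05 (adjusted p 0.103). IMR5-75, the subclone of the amplified line IMR32, read 606 CPM and lay between the groups.

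MYC showed the opposite order. It lay at 0.641 (SK-N-BE(2)C), 0.0750 (IMR32), 0.274 (LS), 0.0818 (NGP) and 0.0642 CPM (SK-N-DZ). The MYC values of IMR32, NGP and SK-N-DZ are no higher than a count of 0 allows there, so the size of the difference is uncertain. Lines without amplification held 6.59 (CLB-GA), 9.90 (Lan-6), 0.850 (NBL-S), 52.8 (SK-N-AS) and 7.92 CPM (SK-N-FI). These groups did not overlap either, but the gap between SK-N-BE(2)C and NBL-S was narrow. The log2 difference was -6.08 (SE 1.22, adjusted p 0.110), with an exact permutation p of 0.00794. NBL-S, the line with the highest MYCN among those not amplified, had the lowest MYC of that group. The remaining 12 genes of the MAX network overlapped between the groups, and none passed the test.

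**Figure D1:**
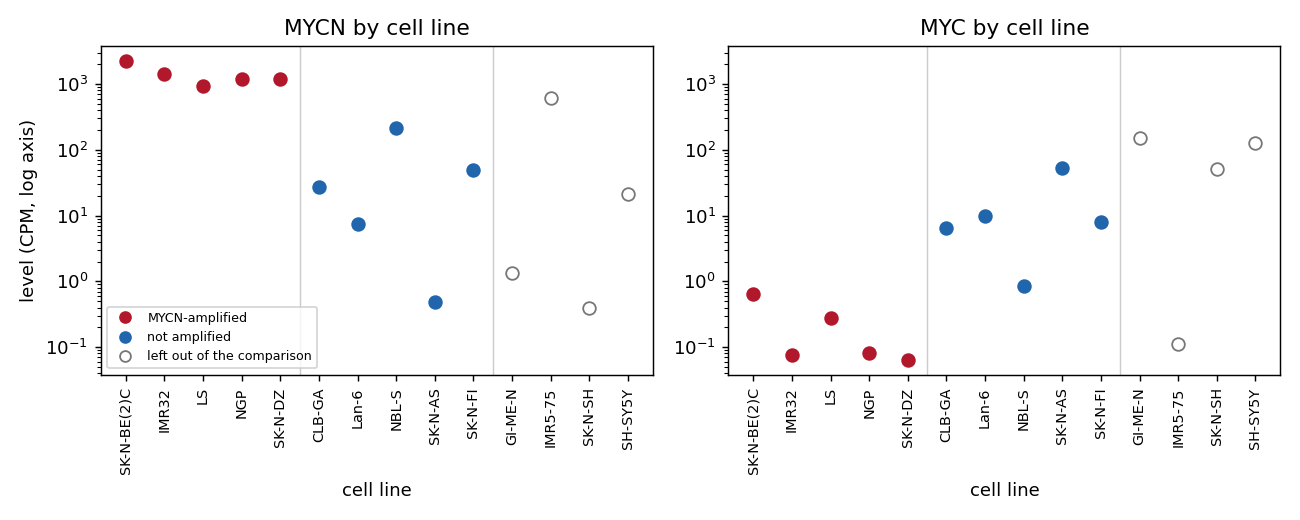
Levels of MYCN (left) and MYC (right) in CPM on a log axis for each of the 14 lines, 1 point per library, with lines left out of the comparison as open circles. The 5 amplified lines sit between 949.5 and 2257 CPM of MYCN and at or under 0.641 CPM of MYC.

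Within the network, MAX, the common partner, was 31.3 to 65.2 CPM in amplified lines and 35.5 to 70.7 CPM in the others (log2 difference 0.01, SE 0.29), a sign that flips with the scaling of the libraries. MLXIP, a glucose-responsive member, had a log2 difference of 1.57 (SE 0.67, adjusted p 0.306). Its level was 1367 CPM in NGP and 78.1 to 213 CPM in the other 9 lines, and without NGP the MLXIP log2 difference was 0.28. MYCL, the third MYC gene, ranged from 0.525 to 17.5 CPM in amplified lines and from 0.0341 to 21.4 CPM in the others (log2 difference 0.57, SE 1.41). ZBTB17 (MIZ1), a partner of MYC at repressed genes, had a log2 difference of -0.48 (SE 0.34), and MXD1 one of 0.49 (SE 0.34). For MXD3 (0.10), MXD4 (0.21), MXI1 (0.21), MNT (-0.04), MGA (0.21), MLX (-0.10) and MLXIPL (0.38), log2 differences were within 1 SE of 0, and the signs of MYCL, MXD3, MXD4, MNT, MGA, MLX and MLXIPL turned when lines or settings were changed.

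Genes that neighbour MYCN on 2p are often copied together with it, and here they varied from one amplified line to the next. DDX1, an RNA helicase gene next to MYCN, reached 7813 CPM in IMR32 and 9770 CPM in SK-N-DZ. In SK-N-BE(2)C, LS and NGP it read 230.0, 175 and 230.0 CPM, within the 135 to 251 CPM of lines without amplification. NBAS, which lies beyond DDX1, was high in the same pair, at 2287 (IMR32), 569 (SK-N-DZ), 133 (NGP), 78.4 (SK-N-BE(2)C) and 72.6 CPM (LS), against 46.2 to 98.6 CPM. LRATD1 (FAM84A) read 2106 (IMR32), 84.4 (NGP), 46.2 (SK-N-DZ), 19.8 (LS) and 5.24 CPM (SK-N-BE(2)C), against 0.0469 to 13.9 CPM. CYRIA, on the other side of MYCN, was high in NGP alone, at 596 CPM against 0.0234 to 10.6 CPM in the other 9 lines. Hence IMR32 and SK-N-DZ were high in DDX1 and NBAS, NGP in CYRIA, while SK-N-BE(2)C held all 4 genes within the range of lines without amplification. LS held 3 of them within that range, and its LRATD1 was above the highest of those lines, at 13.9 CPM.

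Of the 10 neighbours tested, 0 passed in edgeR, with 4 at an unadjusted p under 0.05, all of them higher in amplified lines (DDX1, NBAS, LRATD1 and CYRIA). DESeq2 called 2 of the list higher. The log2 difference was 4.20 (SE 1.20, adjusted p 0.194) for DDX1 and 3.23 (SE 0.94, adjusted p 0.198) for NBAS. The list's median log2 difference was 1.22, beside 0.00 over all 17102 genes tested, and was 0.05 without NGP, 0.35 without LS and 1.84 without NBL-S. SMC6, GEN1 and RDH14, further along the arm, had log2 differences of -0.15, 0.08 and 0.18.

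**Figure D2:**
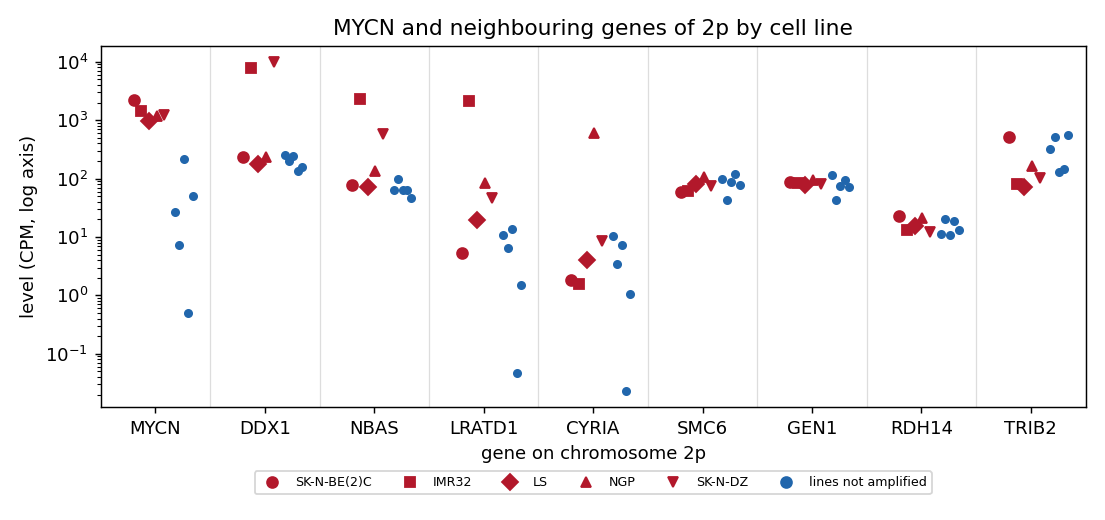
Levels of MYCN and 8 other genes of chromosome 2p in CPM on a log axis, with 1 symbol per amplified line (left of each column) and the 5 lines without amplification (right). DDX1 and NBAS stand high in IMR32 and SK-N-DZ, CYRIA in NGP, and SMC6, GEN1 and RDH14 lie together in both groups.

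Across the transcriptome, 10 genes passed an adjusted p of 0.05 in edgeR: 5 were higher in amplified lines (0.0292% of 17102) and 5 lower (0.0292%). Without overlap between the groups were 331 genes higher (1.94%) and 419 lower (2.45%), and an unadjusted p under 0.05 was reached by 1042 higher (6.09%) and 1520 lower (8.89%). For each of the 10 genes called, the groups did not overlap and the exact permutation p was 0.00794, the smallest possible. Of the same 17102 genes, DESeq2 called 375 higher and 548 lower, the 10 among them, so the number of genes depends strongly on the tool. For the lists below, counts at an unadjusted p under 0.05 stand beside 6.09% higher and 8.89% lower of all genes. DESeq2 calls of the lists stand beside 375 higher and 548 lower of 17102. Whether the counts of any list exceed these shares of all genes was not tested.

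The genes called higher are described first. NEFH, the heavy subunit of neurofilaments (22q, chr22:29480230-29491390), read 124 (SK-N-BE(2)C), 189 (IMR32), 71.8 (LS), 80.9 (NGP) and 39.1 CPM (SK-N-DZ). It was 1.84 (CLB-GA), 0.888 (Lan-6), 0.767 (NBL-S), 0.820 (SK-N-AS) and 1.84 CPM (SK-N-FI). All amplified lines thus lay at least 21.2 times above all others, and the log2 difference was 6.35 (SE 0.55, adjusted p 0.00332). TUBB4A, a beta-tubulin of the nervous system (chr19:6494319-6502848), was 33.0, 4.20, 8.97, 28.2 and 26.3 CPM in SK-N-BE(2)C, IMR32, LS, NGP and SK-N-DZ. The lines without amplification held 0.105 to 0.281 CPM, which gave a log2 difference of 6.90 (SE 0.74, adjusted p 0.00855). GRIA3, a subunit of AMPA-type glutamate receptors (chrX:123184153-123490915), was low throughout, at 9.86, 2.75, 7.84, 7.83 and 2.33 CPM in the amplified lines in that order and 0.0628 to 0.211 CPM in the others. Its log2 difference was 5.61 (SE 0.67, adjusted p 0.0156).

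HPDL, an enzyme of coenzyme Q synthesis (1p, chr1:45326905-45328533), was 5.03 (SK-N-BE(2)C), 19.7 (IMR32), 11.5 (LS), 29.1 (NGP) and 23.3 CPM (SK-N-DZ). It stayed between 0.785 and 1.37 CPM in all 5 lines without amplification, and its log2 difference was 4.14 (SE 0.55, adjusted p 0.0307). PCOLCE2, an enhancer of procollagen processing (chr3:142815922-142889206), read 19.4, 14.3, 20.8 and 17.5 CPM in SK-N-BE(2)C, IMR32, LS and NGP and 0.664 CPM in SK-N-DZ. SK-N-DZ was therefore far below the other amplified lines, though still above the 0.0419 to 0.258 CPM of the lines without amplification. The log2 difference of PCOLCE2 was 6.75 (SE 0.97, adjusted p 0.0460).

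Among genes called lower, MUC15, a membrane mucin (chr11:26559033-26572233), was separated widely. It was 45.3 (CLB-GA), 91.9 (Lan-6), 97.4 (NBL-S), 109.6 (SK-N-AS) and 15.6 CPM (SK-N-FI). The amplified lines held 0.0172 (LS) to 0.300 CPM (IMR32), and the log2 difference was -9.23 (SE 0.87, adjusted p 0.00378). APOBEC3B, a cytidine deaminase that edits single-stranded DNA (chr22:38982347-38992804), stood at 12.4, 17.7, 5.60, 10.5 and 9.99 CPM in CLB-GA, Lan-6, NBL-S, SK-N-AS and SK-N-FI. The amplified lines held 0.0750 to 0.464 CPM, so that it fell by 5.56 on the log2 scale (SE 0.64, adjusted p 0.0133).

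MAGEA11, a cancer-testis antigen (chrX:149688228-149717266), was uneven among lines without amplification, at 1.61 (CLB-GA), 59.2 (Lan-6), 12.8 (NBL-S), 44.9 (SK-N-AS) and 46.5 CPM (SK-N-FI). In amplified lines it lay between 0 and 0.171 CPM (log2 difference -9.19, SE 1.29, adjusted p 0.0436). HOXB3, a homeobox factor (chr17:48548870-48604912), gave 1 count over all 5 amplified libraries and 997 counts over the others, where its level was 1.80, 1.33, 1.20, 13.7 and 4.15 CPM in CLB-GA, Lan-6, NBL-S, SK-N-AS and SK-N-FI. Pooled levels differed 1010-fold, with an exact 95% Poisson interval of 180 to 39700 that covers the count of 1 only and not the spread between lines. SK-N-AS alone gave 584 of the 997 counts. In edgeR the log2 difference of HOXB3 was -9.25 (SE 1.24, adjusted p 0.0307). HOXB3 is under the 5 CPM set for named genes and was named after its values were seen. CAP1, which recycles actin monomers (1p, chr1:40040233-40072649), was abundant in all lines and showed a smaller change. Its level was 78.2 to 128 CPM in amplified lines and 257 to 386 CPM in the others, a fall by 1.53 on the log2 scale (SE 0.22, adjusted p 0.0495).

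How far these calls rest on single lines was checked by leaving out each line in turn. NEFH, TUBB4A and MUC15 passed in all 10 of those fits, APOBEC3B in 9 (lost without LS) and GRIA3 in 7 (lost without LS, CLB-GA or SK-N-FI). HOXB3 and MAGEA11 passed in 3 fits each, and HPDL, PCOLCE2 and CAP1 in 2. Without Lan-6, 4 genes were called higher and 9 lower. NEFH, TUBB4A, GRIA3, MUC15, APOBEC3B, HOXB3 and CAP1 were among them, and HPDL, PCOLCE2 and MAGEA11 were not. Without LS, 2 higher and 1 lower remained called, and without SK-N-AS, 11 and 12. Exons of NEFH, MUC15, TUBB4A, APOBEC3B, HOXB3 and CAP1 overlap those of another gene on the opposite strand, and for CAP1 the overlap with PPT1 covers 1189 of 3814 exon bases. On the same strand, exons of HOXB3 overlap those of HOXB6 (433 of 7456 bases) and HOXB4 (159 bases), and exons of APOBEC3B overlap those of APOBEC3A (348 of 1896 bases), which no strand setting separates. The strand setting of the counting is not given in the sources used here, and reads of near-identical relatives of TUBB4A, APOBEC3B and MAGEA11 could have been split between genes.

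**Figure D3:**
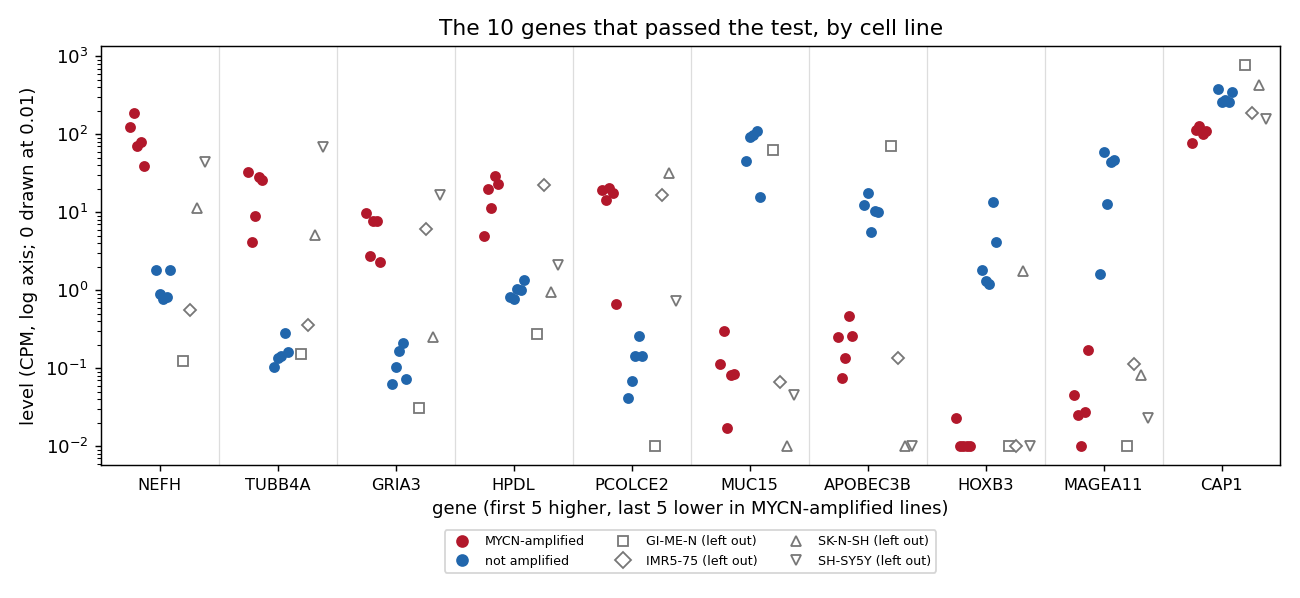
Levels in CPM on a log axis of the 10 genes that passed the test, for 5 amplified lines, 5 lines without amplification and, as open symbols, 4 lines left out of the test. Values of 0 are drawn at 0.01 CPM. The filled points of both colours do not overlap in any of the 10 genes, whereas open symbols fall on both sides.

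The 4 lines left out give levels that the test did not use. GI-ME-N, mesenchymal and without amplification, lay at or beyond the side of the lines without amplification for 8 of the 10 genes and on the amplified side for 2, HOXB3 and MAGEA11, where it held no count. IMR5-75 lay on the amplified side for 7 genes, between the groups for TUBB4A and CAP1, and on the other side for NEFH, at 0.562 CPM against 189 CPM in its parent IMR32. SK-N-SH was on the amplified side for 5 genes and on the other for 3. SH-SY5Y is not amplified and had 21.5 CPM of MYCN and 129 CPM of MYC, yet it lay on the amplified side for 8 of the 10 genes and between the groups for HPDL and CAP1. It held 44.0 CPM of NEFH, 68.1 of TUBB4A and 16.6 of GRIA3, and 0.0460 CPM of MUC15 and no count of APOBEC3B. The separation seen among the 10 lines thus did not extend to SH-SY5Y. With GI-ME-N and SK-N-SH added to the lines without amplification, 4 genes passed as higher (GRIA3, HPDL, CACNA1H and SLCO5A1) and 1 as lower (EHBP1L1).

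The next 20 genes by p-value had adjusted p from 0.0619 to 0.0778 and are named here after their values were seen. EHBP1L1, an adaptor of membrane traffic, was 2.72 to 10.1 CPM in amplified lines and 23.1 to 161 CPM in the others. CACNA1H, a T-type calcium channel (log2 difference 8.08, SE 1.30), WASF3, an actin regulator (5.03, SE 0.81), and CDCA7L, a protein that binds MYC (7.07, SE 1.13), were without overlap on the higher side among the lines compared. In GI-ME-N, SK-N-SH and SH-SY5Y, not amplified and left out, CDCA7L read 9.25, 29.9 and 26.2 CPM, within the range of amplified lines. WASF3 read 34.3, 39.6 and 71.5 CPM there, also within its amplified range, whereas CACNA1H stayed at or under 0.0925 CPM. On the lower side stood the neurogenic factor NEUROD4 (-6.69, SE 1.09), the semaphorin receptor PLXNA2 (-3.45, SE 0.57), the protease ADAMTS9 (-3.79, SE 0.63) and the cancer-testis gene MAGEA1 (-9.43, SE 1.59). NEUROD4 read 12.45 CPM in IMR5-75, above every line compared, and 0 in GI-ME-N, SK-N-SH and SH-SY5Y. In GI-ME-N, SK-N-SH and SH-SY5Y, PLXNA2 read 13.6, 141 and 38.4 CPM. ADAMTS9 read 0.771, 12.1 and 98.0 CPM there, and MAGEA1 0.154, 2.10 and 0.115 CPM. GI-ME-N thus lay on the amplified side for PLXNA2, ADAMTS9 and MAGEA1, SH-SY5Y for PLXNA2 and MAGEA1, and SK-N-SH for ADAMTS9. DPH2 and EBNA1BP2, both on 1p like CAP1, had log2 differences of -1.47 (SE 0.23) and -1.55 (SE 0.26). After removal of the trend of each library with GC content and length, 12 genes passed as higher and 15 as lower. All 10 first called were among them, and CACNA1H, CDCA7L, WASF3, EHBP1L1, PLXNA2, ADAMTS9, DPH2 and EBNA1BP2 were among the further calls. With Lan-6 left out as well, WASF3 alone of these further genes still passed. Of the 10 first called, NEFH, TUBB4A, MUC15, APOBEC3B, HOXB3 and CAP1 then passed, and GRIA3, HPDL, PCOLCE2 and MAGEA11 did not.

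Genes reported to be induced by MYC were examined as a list of 18, of which 16 were tested. None passed in edgeR, where 4 had an unadjusted p under 0.05, all higher in amplified lines (DESeq2 called 2 higher). Of the 16, 12 had a positive log2 difference and 4 a negative one, with a median of 0.28 (0.21 without LS to 0.42 without CLB-GA). List scores overlapped, at -0.48 to 0.66 in amplified lines and -0.77 to 0.31 in the others. SK-N-BE(2)C, with the most MYCN, scored -0.48, the lowest of the amplified lines. GI-ME-N, not amplified and left out, scored 1.39. ODC1, the rate-limiting enzyme of polyamine synthesis, was 260 (SK-N-BE(2)C), 661 (IMR32), 378 (LS), 329 (NGP) and 296 CPM (SK-N-DZ). It was 145 (CLB-GA), 77.4 (Lan-6), 156 (NBL-S), 162 (SK-N-AS) and 164 CPM (SK-N-FI). No amplified line overlapped with the others (log2 difference 1.45, SE 0.32, adjusted p 0.140). NPM1, a nucleolar chaperone, overlapped narrowly at 983 to 2099 CPM against 279.5 to 1029 CPM (log2 difference 1.26, SE 0.38, adjusted p 0.205), and NCL, nucleolin, had a log2 difference of 0.65 (SE 0.25, adjusted p 0.270).

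Genes of the wider growth programmes were split in sign. In ribosome biogenesis, 13 of 28 genes lay above 0 and 15 below, with a median of -0.09 (-0.22 without CLB-GA to -0.03 without NBL-S). RRP12, a factor of ribosome export, was lower without overlap at 41.7 to 74.4 CPM in amplified lines against 103 to 174 CPM (log2 difference -1.12, SE 0.24, adjusted p 0.125), as was RRS1 (-0.82, SE 0.26). Cytosolic ribosomal proteins had 14 of 25 above 0 and a median of 0.07, which became 0.46 with 22 above 0 without Lan-6, 0.28 after the GC and length trend was removed, and -0.09 without SK-N-FI. RPL5 (log2 difference 0.70, SE 0.32), RPS3 (0.63, SE 0.29) and RPL22 (0.85, SE 0.41) had the smallest p-values. In nucleotide synthesis the median was 0.13 (13 of 21 above 0, and 0.04 without SK-N-AS to 0.20 without SK-N-BE(2)C). PPAT, the first enzyme of purine synthesis, was 93.0 to 166 CPM against 13.8 to 69.5 CPM (log2 difference 1.03, SE 0.40, adjusted p 0.267), whereas ADSL, a later purine enzyme, had a log2 difference of -0.56 (SE 0.24) and PFAS one of 0.58 (SE 0.40).

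Polyamine genes, ODC1 included, were 4 above and 11 below 0 (median -0.29, and -0.45 without NGP), and 7 above and 8 below after removal of the GC and length trend (median -0.04). AZIN2, an antizyme inhibitor, was 0.625 to 1.29 CPM in amplified lines and 2.09 to 10.5 CPM in the others (log2 difference -2.58, SE 0.54, adjusted p 0.125). DHPS, which makes hypusine from spermidine, had a log2 difference of -0.75 (SE 0.28). Glycolysis genes were 6 above and 16 below 0 (median -0.27, -0.09 without Lan-6 and -0.41 without NGP). SLC2A1, the glucose transporter GLUT1, had a log2 difference of -1.62 (SE 0.58, adjusted p 0.240). PKM, pyruvate kinase, was 758 to 875 CPM against 973 to 1797 CPM without overlap (-0.62, SE 0.24), and PFKL had a log2 difference of -0.64 (SE 0.26). S phase and mitosis genes had a median of -0.09 (11 of 26 above 0) that turned to 0.09 (17 of 26 above 0) without SK-N-BE(2)C and was -0.18 without SK-N-DZ, with MCM5 at -0.49 (SE 0.25), CCNE1 at -0.71 (SE 0.41) and CHEK1 at 0.60 (SE 0.35). None of the genes in these 6 lists passed in edgeR. The unadjusted p was under 0.05 in 4 higher and 3 lower of the ribosome biogenesis list, none of the ribosomal proteins, 1 and 1 of nucleotide synthesis, 1 and 3 of the polyamine genes, 1 and 3 of glycolysis, and none of S phase and mitosis. DESeq2 called 1 higher and 2 lower, 0, 0, 1 and 1, 0, and 0 in the same order.

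Serine synthesis and one-carbon metabolism, which feed purine and methyl group production, leaned the other way. Of 14 genes 12 lay above 0 and 2 below, with a median log2 difference of 0.38 (0.37 without Lan-6, 0.46 after removal of the GC and length trend, 0.80 without SK-N-AS). None passed in edgeR (2 higher at an unadjusted p under 0.05), and DESeq2 called 1 higher. The list scores of the groups did not overlap, with 0.41, 0.12, 0.29, 0.75 and 0.46 in SK-N-BE(2)C, IMR32, LS, NGP and SK-N-DZ and -0.32, -0.92, -0.01, -0.36 and -0.40 in CLB-GA, Lan-6, NBL-S, SK-N-AS and SK-N-FI. Of the 28 lists, only this list and that of genes reported as repressed by MYCN had scores without overlap. SH-SY5Y, not amplified and left out of the test, scored 0.15, within the amplified range. GI-ME-N scored 0.08, SK-N-SH -0.29 and IMR5-75 0.52. GLDC, the glycine cleavage enzyme, was 2.33 (SK-N-BE(2)C), 23.8 (IMR32), 12.4 (LS), 31.0 (NGP) and 18.1 CPM (SK-N-DZ), against 1.02 to 4.48 CPM in lines without amplification (log2 difference 2.84, SE 0.70, adjusted p 0.169). SK-N-BE(2)C alone kept the groups from separating. ALDH1L2, a mitochondrial folate enzyme, had a log2 difference of 2.41 (SE 0.98, adjusted p 0.293) and MTHFD1L one of 0.70 (SE 0.32, adjusted p 0.341).

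Amino acid supply was mixed, with 8 of 16 above 0 and a median of -0.01 (0.39 without SK-N-AS, -0.19 without SK-N-BE(2)C and 0.32 as the difference of mean log2 CPM), no call in edgeR, 2 higher and 1 lower at an unadjusted p under 0.05 and 2 called higher by DESeq2. ALDH18A1, which makes the precursor of proline, was 110 to 153 CPM in amplified lines and 38.2 to 88.2 CPM in the others (log2 difference 1.11, SE 0.27, adjusted p 0.162). SLC38A5, a glutamine and serine carrier, was 37.1 CPM in IMR32, 15.8 in NGP and 11.4 in SK-N-DZ, but 1.88 in SK-N-BE(2)C and 0.309 in LS, against 0.198 to 0.785 CPM (4.77, SE 1.11, adjusted p 0.157). SLC1A5, the main glutamine carrier ASCT2, had a log2 difference of -0.82 (SE 0.32, adjusted p 0.274). Among partners and stabilisers of MYCN, 6 of 16 lay above 0, and the median was -0.02 (-0.10 without SK-N-DZ to 0.05 without SK-N-AS). CDK9, which releases paused polymerase, was 28.5 to 51.5 CPM against 58.4 to 148 CPM (-1.15, SE 0.30, adjusted p 0.179). TRIM32, a ubiquitin ligase, was higher without overlap (0.86, SE 0.32, adjusted p 0.250). None of this list passed in edgeR (1 higher and 3 lower at an unadjusted p under 0.05), and DESeq2 called 1 higher and 2 lower.

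The E-box CACGTG, which reads the same on both strands, was searched in RefSeq promoters (GRCh38.p14, from 250 bases before to 50 after each listed start). It was found in 36 of 209 promoters of genes higher in amplified lines without overlap (17.2%), in 28 of 321 of genes lower without overlap (8.72%), and in 1432 of 11959 of all tested genes (12%). Of all 27305 genes with a listed promoter, 2396 held it (8.77%). Of the 10 genes called, 5 had a promoter in the table, and TUBB4A alone held the motif. Of the 9 list members that were higher without overlap, 7 had a promoter and 4 of those held the motif. The lists include genes known as MYC targets, and the share of all list members with the motif is not given. The 4 of 7 therefore cannot be tied to the difference between the groups. These 4 were chosen after their values were seen, and their sequences are shown because each pairs the motif with separated groups, ODC1 holding it on both sides of a start. Each is read 5′ to 3′ on the strand of the gene with the E-box in capitals. The printed stretches of ODC1 and WDR43 end before 50 bases past the start.
ODC1 (minus strand, chr2:10448001-10448086, motifs starting at -29 and 6 from the start): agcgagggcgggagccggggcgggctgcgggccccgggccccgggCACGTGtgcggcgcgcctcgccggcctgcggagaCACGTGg
WDR43 (plus strand, chr2:28894625-28894678, motif at 4): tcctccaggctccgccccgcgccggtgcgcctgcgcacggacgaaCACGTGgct
PPAT (minus strand, chr4:56435747-56435842, motif at -182): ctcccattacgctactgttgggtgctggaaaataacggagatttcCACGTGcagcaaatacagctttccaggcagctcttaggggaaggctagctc
ALDH18A1 (minus strand, chr10:95656797-95656892, motif at -136): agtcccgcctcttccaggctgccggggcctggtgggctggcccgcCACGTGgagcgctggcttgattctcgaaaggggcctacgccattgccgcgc
WDR43, a ribosome biogenesis factor, was 93.6 to 122 CPM in amplified lines and 34.8 to 80.0 CPM in the others (log2 difference 0.74, SE 0.25, adjusted p 0.227). A motif match describes the letters of the window and no binding.

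Genes reported as repressed by MYCN were 3 above and 17 below 0 of 20 tested, with a median log2 difference of -0.69. The median was -0.55 with 14 below without Lan-6, and -0.44 without SK-N-FI. None passed in edgeR (0 higher and 2 lower at an unadjusted p under 0.05), and DESeq2 called none. List scores did not overlap, at -0.78 to -0.18 in amplified lines and -0.03 to 0.65 in the others. Among lines left out, SH-SY5Y, not amplified, scored -0.28, within the amplified range. GI-ME-N scored 0.23, SK-N-SH 1.67 and IMR5-75 -0.81. DKK3, a secreted protein of the Dickkopf family, was 38.6, 26.4, 6.98, 46.4 and 42.8 CPM in SK-N-BE(2)C, IMR32, LS, NGP and SK-N-DZ. It was 107, 147, 62.1, 46.2 and 81.3 CPM in CLB-GA, Lan-6, NBL-S, SK-N-AS and SK-N-FI, so that NGP alone reached into the other group (log2 difference -1.46, SE 0.49, adjusted p 0.226). ITGA1, a collagen-binding integrin, had a log2 difference of -1.39 (SE 0.57, adjusted p 0.299), and CLU, clusterin, one of -1.48 (SE 0.71, adjusted p 0.357).

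Adrenergic markers, which define the noradrenergic state of neuroblastoma cells, were 4 above and 15 below 0 of 19, with a median of -0.79 and none called in edgeR (1 higher and 0 lower at an unadjusted p under 0.05) or DESeq2. The median was -0.42 after removal of the GC and length trend, -0.40 without CLB-GA and -1.22 without SK-N-BE(2)C. HAND2 was 506 to 747 CPM in amplified lines and 519 to 1092 CPM in the others. DBH, which makes noradrenaline, was 271 (SK-N-BE(2)C), 5.65 (IMR32), 1.10 (LS), 2.18 (NGP) and 236 CPM (SK-N-DZ). It was 2247 (CLB-GA), 1493 (Lan-6), 777 (NBL-S), 26.2 (SK-N-AS) and 556 CPM (SK-N-FI), so the groups overlapped only through SK-N-AS (log2 difference -3.30, SE 1.54, adjusted p 0.345). CHGA, chromogranin A, spread from 52.9 to 3417 CPM and from 317 to 16220 CPM (-2.40, SE 1.27). TBX2, a T-box factor of this state, had a positive log2 difference of 1.29 (SE 0.46, adjusted p 0.237).

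The neuronal list held 1 call among 21 genes, NEFH, and the others did not follow it: 8 of the 21 lay above 0 and 13 below, with a median of -0.19 in the fit and 0.08 as the difference of mean log2 CPM. The median was -0.44 without SK-N-AS and 0.10 without SK-N-FI. In edgeR 1 gene was higher and 4 lower at an unadjusted p under 0.05, and DESeq2 called 1 and 3. VIP and SCG2, named after their values were seen, lay in the opposite direction. SCG2, secretogranin II, was 11.9 to 347 CPM in amplified lines and 431 to 1606 CPM in the others without overlap (log2 difference -2.10, SE 0.73, adjusted p 0.231). VIP, a neuropeptide, was 0.107 to 8.53 CPM against 3.24 to 369 CPM (-5.91, SE 1.57, adjusted p 0.179). Mesenchymal markers had a median of -0.17 in the fit and 0.39 as the difference of mean log2 CPM, with no call in edgeR (1 higher and 1 lower at an unadjusted p under 0.05) and 1 in each direction in DESeq2. The median was -1.90 without LS and 1.80 without SK-N-AS, so 1 line of each group set it. FOSL1 had a log2 difference of -3.39 (SE 0.95), and PRRX1 one of 5.08 (SE 2.08), which rested on LS (86.1 CPM) and NGP (92.4 CPM) and turned negative with the mesenchymal lines added.

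**Figure D4:**
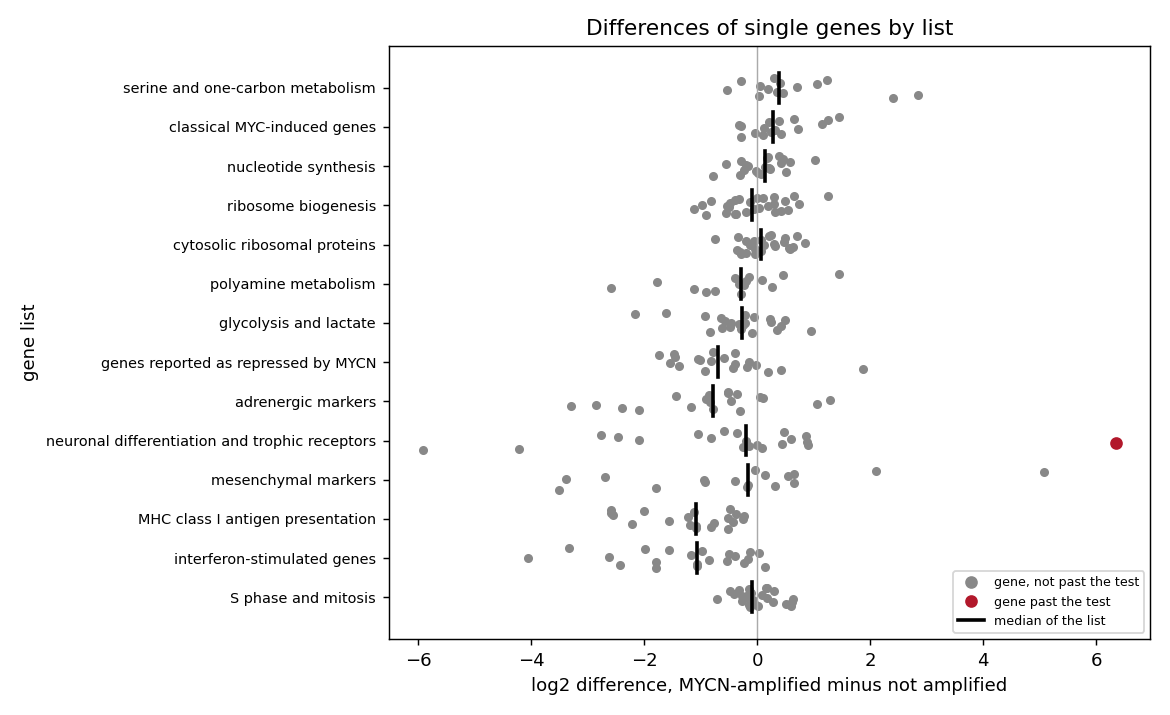
Log2 differences between amplified and other lines for each tested gene of 14 lists, 1 point per gene, with the list's median as a bar. NEFH is the only gene of these lists past the test, all 20 points of the MHC class I list lie below 0, and 12 of 14 points of the serine and one-carbon list lie above it.

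MHC class I molecules present peptides of the cell to killer T cells, and their genes read lower in amplified lines on average without separating the groups. All 20 tested genes of the list had a log2 difference below 0 in the fit, with a median of -1.08, but 0 passed in edgeR (0 higher and 4 lower at an unadjusted p under 0.05) and 2 were called lower by DESeq2. As the difference of mean log2 CPM, which weights a very high line less, 16 of 20 were below 0 and the median was -0.67. The median was -0.66 without Lan-6, with 18 below 0, -0.71 without SK-N-FI, with 15 below 0, and -0.83 after removal of the GC and length trend. CLB-GA and NBL-S had list scores of -1.22 and -1.16, below every amplified line, while SK-N-BE(2)C scored 0.83. B2M, the light chain, was 90.9 to 315 CPM against 75.4 to 431 CPM (log2 difference -0.38, SE 0.50). B2M falls outside the rule for named genes and was picked with its values known.

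The list members with the smallest p-values were not its class I genes. CALR, a chaperone of peptide loading and of many other glycoproteins, was 164 to 383 CPM in amplified lines and 402 to 863 CPM in the others without overlap (log2 difference -1.08, SE 0.30, adjusted p 0.191). PSME2, a proteasome activator subunit, was 30.1 to 40.1 CPM against 40.9 to 178 CPM, separated by a margin under 1 CPM (-1.19, SE 0.40, adjusted p 0.226). PSME1, its partner, had a log2 difference of -2.21 (SE 0.64, adjusted p 0.195).

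Interferon-stimulated genes were 2 above and 19 below 0 of 21, with a median of -1.07. The median was -0.53 without SK-N-AS (6 of 22 above 0) and -0.92 without SK-N-FI (7 of 21 above 0). List scores of the groups overlapped. CLB-GA and NBL-S scored -1.0 and -0.64, within the -1.04 to 0.39 of amplified lines, while Lan-6, SK-N-AS and SK-N-FI scored 0.88, 1.25 and 1.86. None of the 21 genes passed in edgeR, and DESeq2 called 4 lower. At an unadjusted p under 0.05 were 0 higher and 7 lower, where all genes tested gave 6.09% higher and 8.89% lower. STAT2, a transcription factor of the type I interferon response, was 28.8, 46.8, 41.3, 42.6 and 35.8 CPM in SK-N-BE(2)C, IMR32, LS, NGP and SK-N-DZ. It was 58.8, 104, 54.2, 79.3 and 114 CPM in CLB-GA, Lan-6, NBL-S, SK-N-AS and SK-N-FI, without overlap (log2 difference -1.07, SE 0.27, adjusted p 0.175). IFI6 (-3.34, SE 1.20) and MX2 (-2.62, SE 0.96) overlapped, and the MX2 difference rested on 100.2 CPM in SK-N-FI and 31.7 CPM in NBL-S against 3.28 to 5.18 CPM in the other 8 lines. Sensors of nucleic acids were 5 above and 6 below 0 (median -0.21, 0.12 without Lan-6 and 0.09 without SK-N-FI). IRF3, which carries their signal, had a log2 difference of -1.16 (SE 0.45). RIGI, a sensor of viral RNA, was 2.45 to 4.37 CPM in amplified lines and 3.48 to 15.9 CPM in the others (-1.25, SE 0.53), and CGAS, a sensor of DNA, stayed at or under 0.892 CPM (0.74, SE 0.37).

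Checkpoint and natural killer cell ligands divided evenly, with 5 of 10 above 0. CD47, the signal against phagocytosis, was 122.2 to 179.5 CPM in amplified lines and 70.9 to 121.7 CPM in the others (log2 difference 0.68, SE 0.22, adjusted p 0.225), without overlap but nearly touching. CD274 (PD-L1) was at most 2.29 CPM in the 10 lines (-1.50, SE 1.15), while the mesenchymal lines held 95.7 (SK-N-SH) and 31.3 CPM (GI-ME-N). ULBP2 had a log2 difference of -1.81 (SE 1.30), whose sign turned without SK-N-FI. Neither the sensors (0 higher and 2 lower at an unadjusted p under 0.05) nor the ligands (1 higher and 0 lower) held a call in edgeR, and DESeq2 called none in either list.

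**Figure D5:**
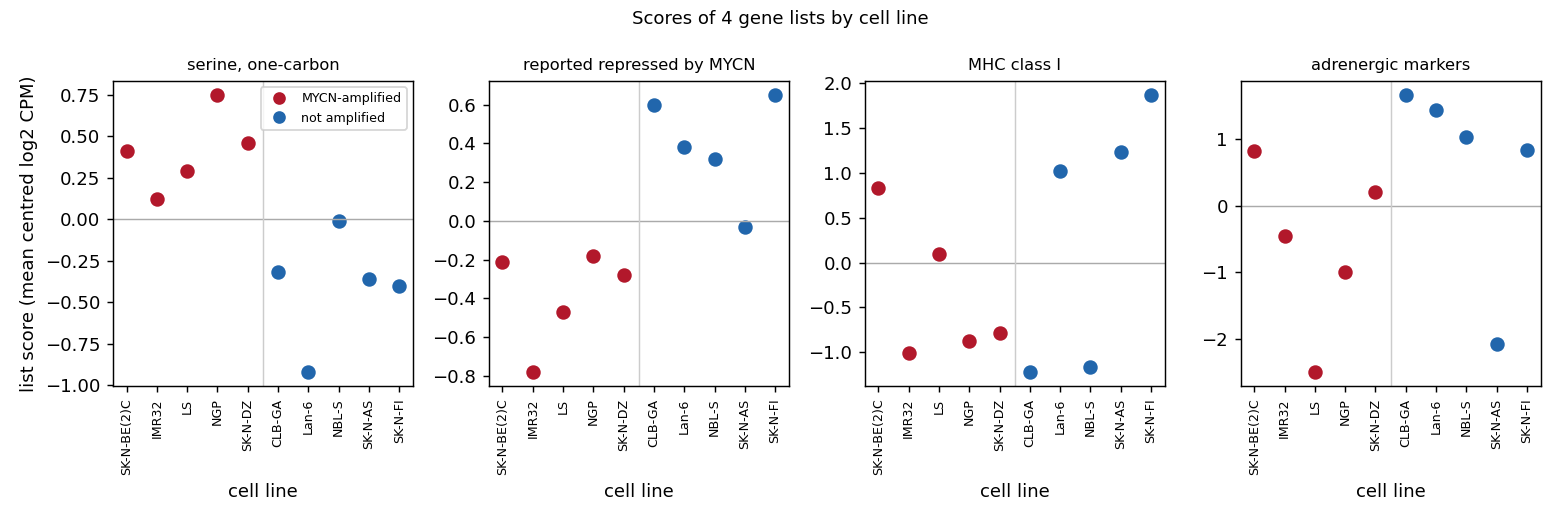
List scores, the mean centred log2 CPM of each list's genes, for the 10 lines in 4 lists. The groups are apart for serine and one-carbon genes and for genes reported as repressed by MYCN, and overlap for MHC class I genes and adrenergic markers.

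Other cancer genes were examined in lists of surface and driver genes, the p53 pathway and the LIN28 axis. MDM2, which degrades p53, was high in LS (4093 CPM) and NGP (935 CPM), against 71.7 to 216 CPM in the other 8 lines (log2 difference 3.53, SE 1.0, adjusted p 0.193). CDK4, near MDM2 on 12q, was high in the same pair (1207 and 1630 CPM), against 189 to 521 CPM elsewhere (1.15, SE 0.64). ST8SIA1, the GD3 synthase of ganglioside synthesis, had a log2 difference of 2.43 (SE 0.93, adjusted p 0.264). The p53 pathway had a median of 0.09 (10 of 17 above 0), which was 0.33 without Lan-6 (12 of 17 above 0), 0.26 without CLB-GA and -0.01 without IMR32. BAX had a log2 difference of -1.18 (SE 0.57) and MDM4 one of 0.59 (SE 0.37). In the LIN28 axis the median was -0.07 in the fit and 0.26 as the difference of mean log2 CPM. It ranged from -0.39 without LS to 0.10 without IMR32, and was -0.28 without Lan-6. IGF2, a fetal growth factor, was 318, 6.53, 17.8, 228 and 3.73 CPM in SK-N-BE(2)C, IMR32, LS, NGP and SK-N-DZ and 2098, 3276, 1756, 1183 and 358 CPM in CLB-GA, Lan-6, NBL-S, SK-N-AS and SK-N-FI. It separated the groups, though SK-N-BE(2)C and SK-N-FI nearly met (-3.92, SE 1.22, adjusted p 0.215). ARID3B had a log2 difference of -1.54 (SE 0.45, adjusted p 0.200) and DIS3L2 one of -0.44 (SE 0.26).

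Telomerase and shelterin genes had 5 of 14 above 0 and a median of -0.39 (-0.13 without Lan-6, 0.00 after removal of the GC and length trend). RUVBL2, an ATPase of telomerase assembly, was 65.1 to 93.4 CPM in amplified lines and 151 to 407 CPM in the others (-1.51, SE 0.31, adjusted p 0.116). NOP10, a protein of the telomerase particle, was 39.3 to 61.9 CPM against 67.0 to 162 CPM (-0.99, SE 0.30, adjusted p 0.204), and GAR1 had a log2 difference of -0.90 (SE 0.32). In these lists (surface and driver genes, p53 pathway, LIN28 axis, and telomerase and shelterin), 0 genes passed in edgeR. The unadjusted p was under 0.05 in 2 higher and 0 lower, 1 and 0, 0 and 2, and 1 and 3. DESeq2 called 1 and 0, 1 and 0, 0 and 2, and 0 and 2.

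Markers of other cell types held no call in edgeR or DESeq2 (1 gene higher and 2 lower at an unadjusted p under 0.05). CD3E, MS4A1, LYZ, ITGAM, CDH5, KDR, TEK, PMP2 and FAP were among those too low to be tested. Summed leukocyte markers came to 5.87 to 48.2 CPM in 9 lines and 484 CPM in SK-N-AS, through PTPRC (log2 difference -5.63, SE 2.00, and 1.03 without SK-N-AS). CD68 had a log2 difference of -1.06 (SE 0.61). Endothelial markers summed to 3.0 to 11.9 CPM (PECAM1 0.40, SE 0.35, and CLDN5 0.60, SE 0.76) and Schwann cell markers to 4.45 to 20.8 CPM (ERBB3 -1.77, SE 0.63). Fibroblast markers summed to 94.2 to 833 CPM in amplified lines, with LS and NGP highest, and to 95.4 to 2476 CPM in the others, with SK-N-AS highest. LUM (-3.50, SE 1.71) and DCN (-3.10, SE 1.55) turned to 1.80 and 0.90 without SK-N-AS. The part of these markers in the other differences was not tested.

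Levels were last compared by chromosome arm, since losses and gains of whole arms are frequent in neuroblastoma. Of 41 arms with at least 50 genes, 0 differed between the groups in the exact permutation test after Benjamini-Hochberg adjustment (lowest adjusted p 0.325). The lowest unadjusted exact p was 0.0159, for 5p, whose mean log2 level was 0.46 higher in amplified lines (0.35 without Lan-6), followed by 21q and 3q (0.0238 each, 0.37 and 0.17 higher) and 6q (0.0317, 0.53 higher). On 6q, Lan-6 stood at -1.31 and the other 9 lines at -0.30 to 0.41, and without Lan-6 the difference was 0.29 (0.25 with the GC and length trend removed as well). Arm 1p, which is often lost together with MYCN amplification, differed by -0.09 (exact permutation p 0.405). Of its 922 genes, 31 were lower without overlap (3.36%, near the 2.45% of all genes tested) and 7 higher (0.759%, against 1.94%). On 19p and 19q, genes lower without overlap were 8.32% of 577 and 8.28% of 676, against 2.45% of all genes. The mean level differed by -0.20 on 19p and -0.32 on 19q, which became -0.10 and -0.22 without Lan-6 and 0.03 and -0.13 after removal of the GC and length trend.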

How the data were processed

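Total RNA of each line was isolated with TRIzol and sequenced as TruSeq libraries, per the labels' protocols. Kallisto 0.44.0, DESeq2 1.48.2 and GRCh38 are named, with no step, in the submitters' processing notes. No source used here gives the annotation, strand setting or filters. For 20049 symbols the authors deposited whole numbers that differ in total between libraries, taken here as each gene's estimated count after rounding (kallisto estimates counts). The deposited log2 values served only as an alternative.

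Counts were fitted with edgeR 4.0.16 (TMM scaling, filterByExpr, quasi-likelihood test, 17102 genes, Benjamini-Hochberg adjusted p under 0.05). SE is the log2 difference over the root of F. Log2 CPM used a prior count of 2. Mitochondrial genes took 3.44% to 10.9% of counts. No pair of libraries held identical counts. Limits at a count of 0 (3 counts) cover counting error only. Exact permutation tests were 2-sided. Positions are from GENCODE 29 (GRCh38), which matched 98.8% of symbols.

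The lines, the 28 gene lists and the tests were chosen with earlier results of these data known. Named were up to 15 genes called per direction with at least 5 CPM in the higher group and an unadjusted p under 0.05 in every fit leaving out 1 line, the MAX network, and list members that were called or, in lists with none, had the smallest p (3 per list, 2 for marker lists). The fit was tested on simulated data. Alternatives were DESeq2 1.42.0 and its size factors, limma 3.58.1, no or a stricter filter (1 CPM in 5 lines), robust spread, removal of a GC and length trend (spline, 5 degrees of freedom), each line left out, and lines added. Removal of the trend without Lan-6 was chosen after seeing the data. Some named genes are not reported here.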

Additional observations from a re-analysis of the deposited data

Results flagged for a closer look

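In PCOLCE2, SK-N-DZ stood far from the other amplified lines with 0.664 CPM. On the log2 CPM scale, the gap to the next line was 0.889 of the group's range, and on the CPM scale it was smaller. HOXB3 was flagged among amplified lines because SK-N-BE(2)C, at 0.0229 CPM, held the only count of the group, which is no more than 1 read. Of 24 groups of 5 lines tested in this way, chance alone flags about 1 in 20. In a line outside the comparison, IMR5-75, MYCN read 606 CPM, above every line without amplification.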

How the results depend on the processing

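Counts of genes called higher and lower were 375 and 548 with DESeq2, 12 and 15 with the GC and length trend removed, and 40 and 59 with all 14 lines. They were 4 and 3 without a filter, 4 and 1 with the mesenchymal lines added, and 3 and 7 with the trend removed and Lan-6 left out. Leaving out 1 line gave 2 to 11 higher and 1 to 12 lower, the extremes being without LS and without SK-N-AS. The MYCN log2 difference kept its sign in all 20 alternatives and passed in 1 (DESeq2, 4.56, adjusted p 5.05e-04), within a range of 4.24 to 6.05 without 1 line. The MYC log2 difference kept its sign in all 19 that tested it, passing with DESeq2 (-6.11, adjusted p 1.01e-07) and with all 14 lines (-7.91, adjusted p 0.029); the stricter filter removed it. With all 14 lines, 4 arms passed (lowest adjusted p 0.0273); the copies of related lines are then counted as separate lines. All 10 called genes kept their sign in every alternative that tested them, but not all stayed called. With all 14 lines, HPDL, HOXB3, MUC15 and CAP1 still passed, while NEFH, TUBB4A, GRIA3, APOBEC3B, MAGEA11 and PCOLCE2 did not. Across the alternatives, the log2 difference went as low as 0.87 for TUBB4A and 1.49 for GRIA3. For the other changes the cause was not tested.

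Signs turned for PRRX1 (-2.51 with mesenchymal lines, -1.88 with 14 lines), ULBP2 (0.26 with 14 lines), and near 0 for MAX (-0.02 with DESeq2 size factors and DESeq2, -0.05 in limma, -0.00 without a filter, -0.10 with mesenchymal lines, -0.04 with 14 lines), MXD3 (-0.00 with mesenchymal lines, -0.08 with 14), MNT (0.07 in limma, 0.19 without the trend, 0.05 with 14 lines), MGA (-0.02 without the trend, -0.06 also without Lan-6) and MLX (0.02 with 14 lines, 0.17 without trend and Lan-6). Without 1 line, ranges that crossed 0 were -2.25 to 0.11 for ULBP2, -5.95 to 1.03 for PTPRC, -4.17 to 1.80 for LUM, -3.98 to 0.90 for DCN, -0.06 to 3.29 for MYCL, -0.13 to 0.17 for MAX, -0.10 to 0.63 for MXD3, -0.02 to 0.88 for MXD4, -0.16 to 0.27 for MNT, -0.32 to 0.23 for MLX and -0.07 to 0.94 for MLXIPL. No paired analysis was possible because replicate numbers only name lines.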
